A study of Rattus norvegicus with 9 samples.

Results

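The genes described here build and control the contractile apparatus of smooth muscle: its actin and myosin filaments, the proteins that bind actin, the enzymes that act on myosin, the intermediate filaments and dense bodies, the attachments to the cell membrane, and 2 transcription factors. The list named 39 genes. A gene entered when a probe set (the group of short probes that reads 1 transcript) was annotated with that gene symbol alone, and where a gene had several such probe sets, the 1 with the highest mean signal was used. This rule kept 36 genes of the 14217 measured on the array. Myl6 shared its probe set with relatives, and Pgm5 and Sgcd had no probe set in the annotation used, so these 3 genes were not analysed here.

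RNA of 9 rat bladder samples was hybridised to Affymetrix arrays, 3 from each group. The tumor group held bladder transitional cell carcinomas of 3 SD (Sprague-Dawley) rats, and the adjacent group held normal-appearing tissue taken beside the tumor in the same 3 rats. The normal group held bladder tissue of 3 separate normal SD rats. Labels gave all animals as female and 10 weeks old. Tumors were raised by instilling MNU (N-methyl-N-nitrosourea, a DNA-alkylating carcinogen) into the bladder at 20 mg/ml once a week for 10 weeks. The labels repeat this treatment text for all 9 samples, while the design speaks of normal rats. The labels thus do not settle whether the normal group received MNU, an instillation without MNU, or neither. Here the normal rats were taken as untreated, from the series design and the sample titles. No label gives the distance of the adjacent tissue from the tumor or the wall layers it contained. The arrays are whole-tissue measurements, and 3 arrays a group limit the precision of every comparison.

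Smooth muscle shortens when myosin heads pull on actin filaments that are tied to dense bodies in the cytoplasm and to plaques at the membrane. Calcium entering the cell binds calmodulin and switches on myosin light chain kinase, which phosphorylates the myosin light chain, and myosin phosphatase takes the phosphate off again. In the bladder this muscle forms the detrusor, the thick outer wall that empties the organ, and many of its genes are driven by serum response factor (SRF) with its partner myocardin through a DNA element called the CArG box.

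Because SRF binds CArG boxes, the RefSeq promoter windows of the list (GRCr8 build, 250 bases before to 50 bases after a transcript start) were read for that motif. A window was found for 31 of the 39 genes, giving 36 windows, and none was given for Myl9, Fermt2, Lmod1, Itga7, Myocd, Tagln, Myh11 or Pdlim3. A CArG box, a 10-base motif that reads the same way on both strands, stood in 4 of the 36 windows (11.1%), against 1.64% of all 33469 windows. The 4 genes were Srf, with 2 boxes at 81 and 61 bases upstream of the start, Ldb3 with CCATTTATGG at 52, Dmd with CCTATTATGG at 98 and Fhl1 with CCTAAAATGG at 102 bases upstream. With 1 core base changed to C or G, matches were found in the Acta2 window, at 134 and 84 bases upstream, and in no other window of the list (2.78% of 36 windows, against 8.1% of all). The looser E box CANNTG was held by 58.3% of these windows and 72.1% of all. TATAAA, searched on both strands, was held by 16.7% and 14.2%. A TATAAA can lie in the core of a box, and the exact and the changed box exclude each other. The stretches of Srf and Acta2 from 140 to 31 bases upstream are shown because they hold the pairs of boxes, which stand in capitals. Srf lies on the plus strand (chr9:21923936-21924045) and Acta2 on the minus strand (chr1:241172534-241172643), and both are printed 5′ to 3′.
Srf: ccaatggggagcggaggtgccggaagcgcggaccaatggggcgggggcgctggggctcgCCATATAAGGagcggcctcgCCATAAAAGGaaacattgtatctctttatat
Acta2: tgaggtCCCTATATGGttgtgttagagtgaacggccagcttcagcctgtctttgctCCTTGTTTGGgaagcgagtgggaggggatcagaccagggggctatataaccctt
A match is a run of letters in a window and no measure of binding, and the Srf and Acta2 genes carrying these pairs are described with the other transcription factors and filaments.

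Across the list, the normal arrays stood close together and the other 6 arrays mostly below them. The deposited values are log2 signals, so a difference of 1 is a doubling, and each array was set against the mean of the 3 normal arrays, gene by gene. The median over the 36 genes was 97.6%, 98.5% and 105.5% of that mean in normal samples 1, 2 and 3. It was 60.4%, 5.98% and 5.31% in tumors 1, 2 and 3, and 26.1%, 12.5% and 6.92% in adjacent samples 1, 2 and 3. With each gene read as the mean of its probe sets, tumors 2 and 3 stood at 9.89% and 8.53% and adjacent 3 at 10.6%. As a mean over genes of linear percents in place of the median, tumors 2 and 3 stood at 11.7% and 13.1% and adjacent 3 at 13.3%. Tumor 1 therefore stood apart from the other 2 tumors: it was the highest tumor for all 36 genes, and it lay above every adjacent array for 34 of them. Tumors 2 and 3 were below every normal array for all 36 genes, while tumor 1 was below for 31 and above every normal array for 3 (Actn1, Flnc and Sgca). Adjacent 1 was the highest of its group for 30 of the 36 genes. A signal below 50 (log2 5.64) was taken as dim, a limit chosen after the data had been seen, and the fitted difference of a gene with dim arrays in 1 group is not an exact size. In whole tissue, fewer smooth muscle cells and less of each RNA per cell cannot be told apart.

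**Figure D1:**
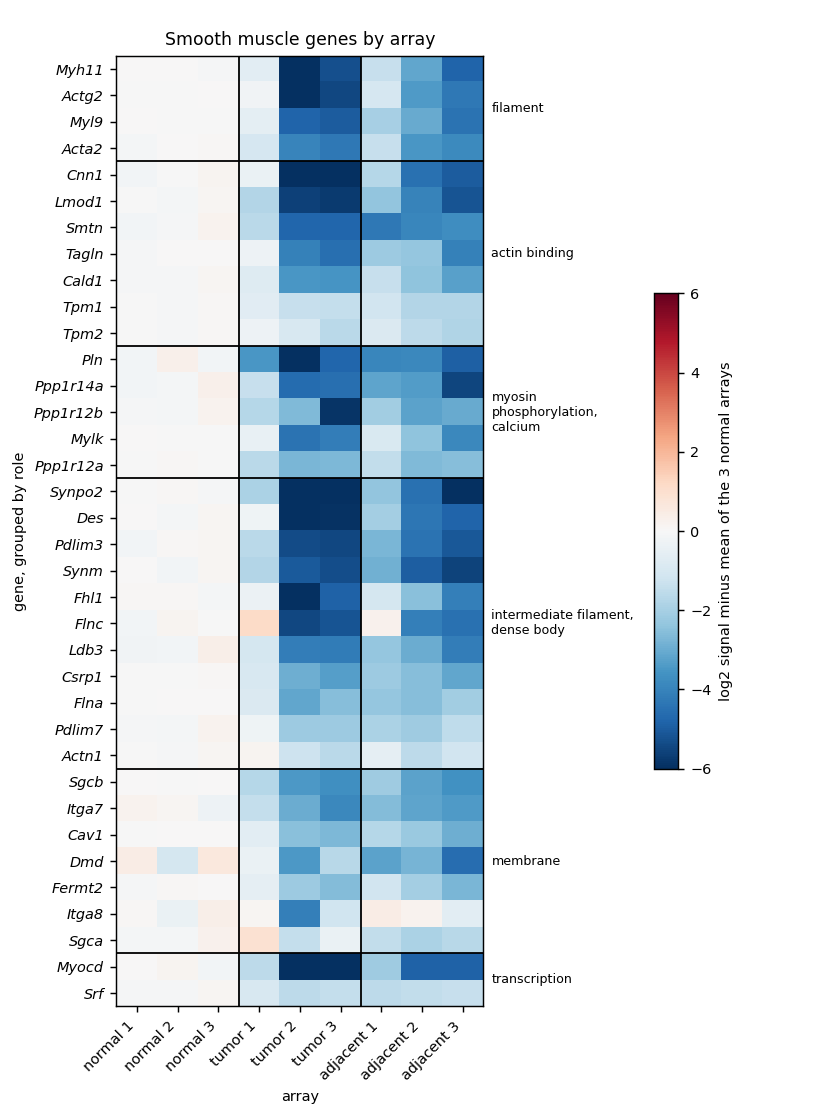
Log2 signal of the 36 smooth muscle genes (rows, grouped by role) on the 9 arrays (columns), as the difference from the mean of the 3 normal arrays; blue is lower and red higher, and the color scale ends at 6 log2 units either way. Tumors 2 and 3 are the darkest columns, tumor 1 the palest outside the normal group, and the 2 reddest cells are Flnc and Sgca in tumor 1.

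The spread within groups followed the same split. The median SD of a gene's log2 signal was 1.80 in the tumors, 0.93 in the adjacent samples and 0.10 in the normal bladders, against 0.34, 0.36 and 0.17 over all 14217 genes. Srf had the smallest SD of the list among both tumors (0.31) and adjacent samples (0.09), and Cnn1 the largest among tumors (4.28).

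In the comparison of tumors with normal bladder, all 36 genes had a lower mean in the tumors, with a median difference of -3.05 (log2) against 0.05 over all genes. By limma's moderated test with Benjamini-Hochberg adjustment over all probe sets (n = 3 against 3), 20 of 36 passed an adjusted p of 0.05 as lower and 0 as higher, where 9.95% of all genes were called lower and 13.6% higher. With each array centred on its median, which moved the median of all genes to 0.25 and that of the list to -2.84, the count stayed at 20 while 7.67% of all genes were called lower. The tumors lay wholly below the normal arrays for 31 of 36 genes, against 20.1% of all genes. The count of 20 changed when single arrays were left out: it was 34 without tumor 1, 5 without tumor 2, 7 without tumor 3 and 4 without any 1 of the normal arrays. The normal arrays were close to each other (median SD 0.10), and each such fit had fewer arrays. The share of all genes called in these fits is not given here, so the part of the smaller sample in these counts was not tested. Ppp1r12a, Pln, Sgcb and Srf passed whichever array was left out.

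In the adjacent tissue, 34 of 36 genes were called lower than in normal bladder and 0 higher (background 11.5% lower and 13.3% higher, or 9.20% and 21.2% with arrays centred). The median difference was -2.87 (log2), against 0.01 over all genes. Adjacent and normal arrays did not overlap for the same number, 34 of 36, against 21.9% of all genes. The genes not called were Flnc (adjusted p = 0.124) and Itga8 (adjusted p = 0.997). The count ran from 27 to 35 when single arrays were left out, and 27 genes passed in every such fit. Both comparisons used the same 3 normal arrays, so they are not independent of each other.

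Between tumors and adjacent tissue, 0 of 36 genes passed, and 0 of all 14217 genes did (background 0%). The median difference was -0.08 (log2), with 19 genes lower and 17 higher in the tumors. At an unadjusted p under 0.05, 1 gene passed, Sgca, against 2.64% of all genes. These differences had wide errors, for example -0.99 ± 1.52 (SE) for Actg2, so the result does not show that the tissues had the same level.

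**Figure D2:**
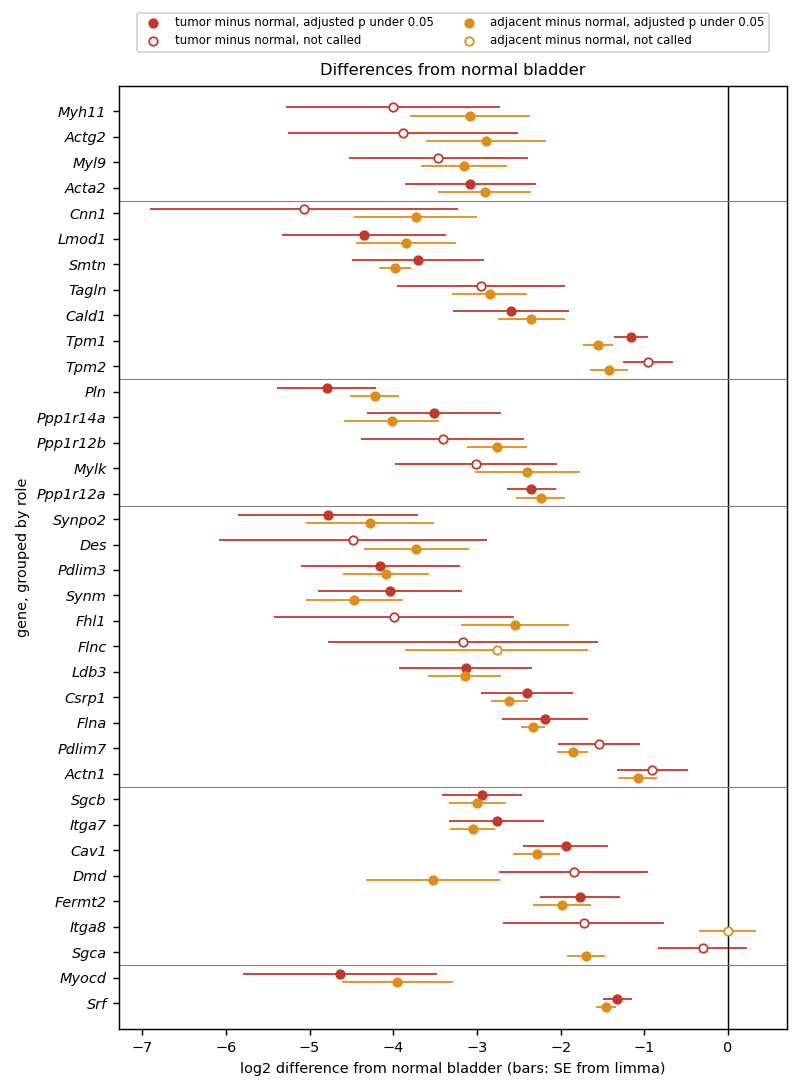
Difference from normal bladder in log2 units (horizontal axis) for each gene (vertical axis, grouped by role) in tumors (red) and adjacent tissue (orange), n = 3 arrays a group; bars are standard errors from limma, filled points have an adjusted p under 0.05 and open points do not. Most orange bars are shorter than the red ones, and Sgca and Itga8 are the genes nearest 0 in tumors and in adjacent tissue.

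The 4 contractile filament genes kept more of their normal signal in tumor 1 than on any other tumor or adjacent array. In tumors 1 of the 4 was called lower, in adjacent tissue all 4. Actg2 encodes the gamma actin of visceral smooth muscle. Its log2 signal was 14.58, 14.57 and 14.63 in normal samples 1 to 3, 14.38, 8.62 and 9.15 in tumors 1 to 3, and 13.61, 11.21 and 10.30 in adjacent samples 1 to 3. Tumor 1 thus held 86% of the normal level while tumors 2 and 3 held 1.59% and 2.29%. With that spread the tumor difference of -3.88 ± 1.37 (SE) was not called (adjusted p = 0.0958), and the adjacent one of -2.89 ± 0.71 was (adjusted p = 0.0275). The adjacent call for Actg2 was lost without adjacent 2 or without any 1 normal array.

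Myh11, the smooth muscle myosin heavy chain that forms the thick filament, ran the same way. It measured 14.46, 14.44 and 14.37 in normal bladder, 13.80, 8.31 and 9.13 in tumors, and 13.06, 11.32 and 9.63 in adjacent tissue. No tumor or adjacent array reached the normal range. Its brightest probe set gave -4.0 ± 1.28 in tumors (adjusted p = 0.0725) and -3.09 ± 0.72 in adjacent tissue (adjusted p = 0.0219, lost without adjacent 2 or any 1 normal array), while its dimmer probe set was called in tumors at -5.26 (adjusted p = 0.0440).

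Myl9, the regulatory light chain that is phosphorylated to start contraction, measured 14.35, 14.28 and 14.31 in normal bladder, 13.71, 9.52 and 9.32 in tumors, and 12.32, 11.27 and 9.89 in adjacent tissue. The tumor difference was -3.46 ± 1.07 (adjusted p = 0.0662) and the adjacent one, called in every fit that left out an array, -3.16 ± 0.51 (adjusted p = 0.00569). Acta2, the alpha actin shared by vascular and visceral smooth muscle and by myofibroblasts, was the filament gene called in both tissues. Its signal was 12.12, 12.26 and 12.31 in normal bladder, 11.21, 8.29 and 7.96 in tumors, and 10.83, 8.73 and 8.41 in adjacent tissue. That made it 8.45-fold lower in tumors (adjusted p = 0.0361) and 7.50-fold lower in adjacent tissue (adjusted p = 0.0103). In tumors the call for Acta2 did not survive leaving out tumor 2, tumor 3 or any 1 normal array.

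**Figure D3:**
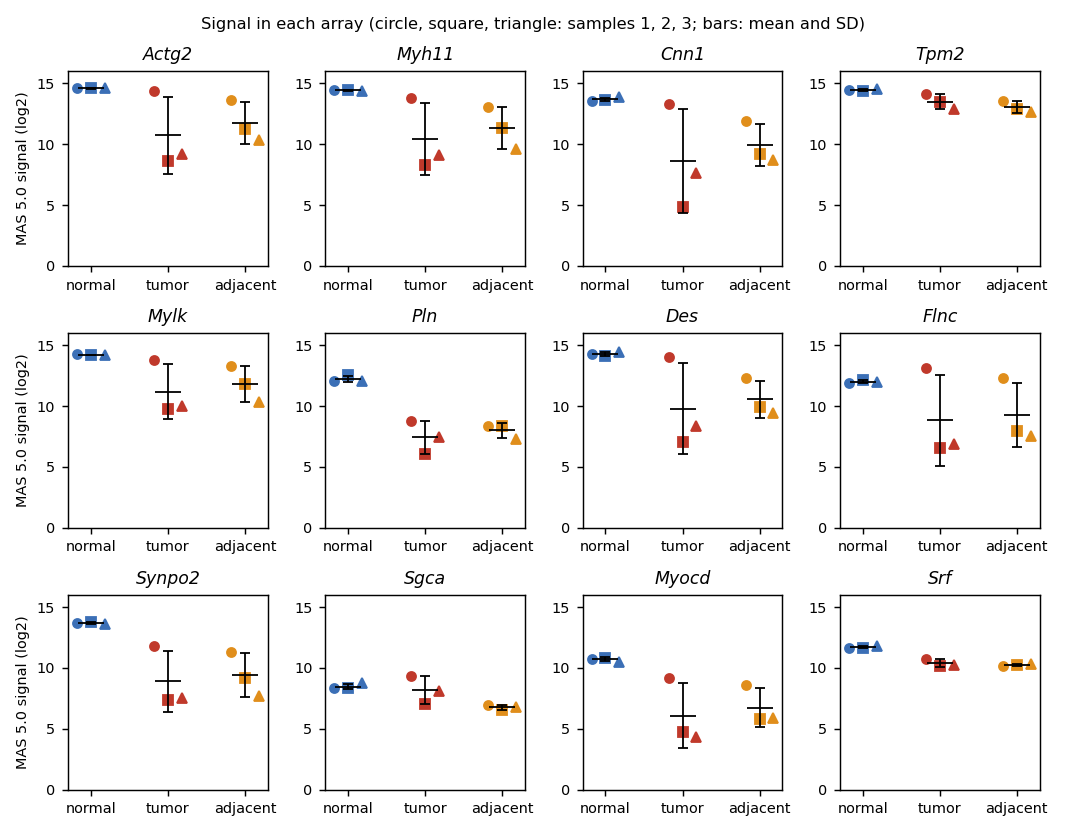
Log2 signal (vertical axis) of 12 of the genes in the normal (blue), tumor (red) and adjacent (orange) groups; circle, square and triangle are samples 1, 2 and 3, and black bars are the mean and SD of 3 arrays. In Actg2, Myh11, Cnn1, Mylk and Des the tumor circle sits near the normal arrays and the other 2 tumors far below, while Pln and Srf are lower on all tumor and adjacent arrays.

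Among the 7 actin-binding regulators, 4 were called lower in tumors (Tpm1, Smtn, Lmod1 and Cald1) and all 7 in adjacent tissue. Cnn1, basic calponin, which binds actin and slows the myosin ATPase, showed both the largest mean difference in tumors and the largest scatter. It measured 13.52, 13.64 and 13.83 in normal bladder, 13.27, 4.88 and 7.65 in tumors, and 11.94, 9.19 and 8.67 in adjacent tissue. With tumor 2 dim, the tumor difference of -5.07 ± 1.84 was not called (adjusted p = 0.103), and the adjacent one of -3.73 ± 0.74 was (adjusted p = 0.0118, lost without normal 2 or normal 3).

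The tropomyosins, coiled coils that lie along actin, had the smallest tumor differences of the role. Tpm1 was at 14.08, 14.01 and 14.15 in normal bladder, 13.39, 12.71 and 12.67 in tumors, and 12.92, 12.35 and 12.30 in adjacent tissue. It was 2.23-fold lower in tumors (adjusted p = 0.0118, lost without any 1 normal array) and 2.94-fold lower in adjacent tissue (adjusted p = 0.00164). Tpm2 was at 14.44, 14.37 and 14.54 in normal bladder, 14.14, 13.48 and 12.85 in tumors, and 13.56, 12.87 and 12.64 in adjacent tissue. Its groups did not overlap with normal either, but the tumor difference of -0.96 ± 0.30 was not called (adjusted p = 0.0674), and the adjacent one of -1.42 ± 0.23 was (adjusted p = 0.00518).

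The other 4 regulators lay between these. Smoothelin (Smtn), a marker of contractile smooth muscle, was held at 32.6%, 3.71% and 3.72% of normal in tumors 1 to 3 and at 5.11%, 6.54% and 7.55% in adjacent samples, the only filament or actin-binding gene lower in adjacent 1 than in adjacent 2 and 3. Leiomodin 1 (Lmod1), an actin nucleator, was dim in tumors 2 and 3 and adjacent 3, and was called lower in tumors (adjusted p = 0.0256). Caldesmon (Cald1), which blocks myosin binding to actin, differed by -2.59 in tumors (adjusted p = 0.0420). Leaving out tumor 2, tumor 3 or any 1 normal array ended the tumor calls of Smtn, Lmod1 and Cald1. Transgelin (Tagln), an actin cross-linker, stood at 82.1%, 6.06% and 4.34% of normal in tumors 1 to 3 and was not called there (adjusted p = 0.0862).

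Of the 5 genes that control myosin phosphorylation and calcium, 3 were called lower in tumors and all 5 in adjacent tissue. In tumor 1 the kinase stood at 73.9% of normal and the other 4 genes between 8.96% and 37.9%. Mylk, the myosin light chain kinase, measured 14.23, 14.18 and 14.16 in normal bladder, 13.75, 9.76 and 10.02 in tumors, and 13.29, 11.79 and 10.30 in adjacent tissue. All 6 tumor and adjacent values lay below the normal range. The tumor difference was -3.01 ± 0.97 (adjusted p = 0.0735), and the adjacent difference was -2.40 ± 0.62 (adjusted p = 0.0333, lost without adjacent 2 or any 1 normal array). Its other probe set was called lower in tumors (adjusted p = 0.0403) and in adjacent tissue (adjusted p = 0.00393). That probe set was dim on the arrays numbered 2 and 3 of both tissues, so no size is given.

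Ppp1r12a, the targeting subunit of myosin phosphatase, measured 13.87, 13.97 and 13.88 in normal bladder, 12.31, 11.15 and 11.21 in tumors, and 12.42, 11.25 and 11.33 in adjacent tissue. All 6 arrays of tumor and adjacent tissue lay below normal, at 14.8% to 35.7%. It was 5.10-fold lower in tumors (adjusted p = 0.00501) and 4.72-fold lower in adjacent tissue (adjusted p = 0.00246). Pln, phospholamban, the brake on the calcium pump of the sarcoplasmic reticulum, was the lowest gene of the list in tumor 1, at 8.96% of normal. Its signal was 12.08, 12.53 and 12.08 in normal bladder, 8.75, 6.08 and 7.47 in tumors, and 8.33, 8.37 and 7.32 in adjacent tissue. It was 27.8-fold lower in tumors (adjusted p = 0.00469) and 18.7-fold lower in adjacent tissue (adjusted p = 0.000386).

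The 2 remaining genes of this role were lower in adjacent tissue. Ppp1r12b, a second targeting subunit, was dim on the arrays numbered 2 and 3 of both tissues. Its adjusted p of 0.0525 in tumors missed the threshold, and it was called lower in adjacent tissue (adjusted p = 0.0025). Ppp1r14a, the phosphatase inhibitor CPI-17, differed by -3.51 in tumors (adjusted p = 0.0266, lost when tumor 2, tumor 3 or any 1 normal array was left out) and by -4.02 in adjacent tissue (adjusted p = 0.00331).

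Of the 11 genes of intermediate filaments and dense bodies, 6 were called lower in tumors (Synm, Synpo2, Pdlim3, Csrp1, Flna and Ldb3) and 10 in adjacent tissue. Synpo2, an actin-bundling protein of dense bodies, had the largest tumor difference. It stood at 13.69, 13.77 and 13.62 in normal bladder, 11.79, 7.40 and 7.54 in tumors, and 11.33, 9.20 and 7.70 in adjacent tissue. That was 27.4-fold lower in tumors (adjusted p = 0.0257) and 19.4-fold lower in adjacent tissue (adjusted p = 0.00802). Synemin (Synm), an intermediate filament protein that joins desmin to the dense bodies, had the largest adjacent difference of the whole list, -4.47 ± 0.58 (adjusted p = 0.00255).

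Csrp1, a LIM-domain protein on actin bundles, measured 14.14, 14.16 and 14.22 in normal bladder, 13.21, 11.25 and 10.85 in tumors, and 12.00, 11.60 and 11.07 in adjacent tissue. It was 5.28-fold lower in tumors (adjusted p = 0.0272) and 6.12-fold lower in adjacent tissue (adjusted p = 0.000651). All 6 tumor calls of this role ended when tumor 2, tumor 3 or any 1 normal array was left out. Desmin (Des), the muscle intermediate filament, was not called in tumors (adjusted p = 0.0986), where it stood at 83.5%, 0.658% and 1.63% of normal. Fhl1, a LIM-domain protein of muscle whose window holds a CArG box, had the same form, at 79.6%, 0.897% and 3.47% of normal (adjusted p = 0.0995 in tumors, 0.03 in adjacent tissue, lost without adjacent 2 or any 1 normal array). Pdlim3, which binds alpha-actinin, was lower on all tumors, at 32.2%, 2.43% and 2.27% of normal (adjusted p = 0.0263), and was 17.0-fold lower in adjacent tissue (adjusted p = 0.00235).

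Actn1, an alpha-actinin that cross-links actin in dense bodies and also in nonmuscle cells, had the smallest tumor difference of its role. Its signal was 13.20, 13.16 and 13.35 in normal bladder, 13.40, 11.98 and 11.62 in tumors, and 12.68, 11.68 and 12.11 in adjacent tissue. Tumor 1 was above all normal arrays, and the tumor difference of -0.91 ± 0.42 was not called (adjusted p = 0.186). The adjacent difference of -1.08 ± 0.23 was called (adjusted p = 0.0170, lost without any 1 normal array). Flnc, the muscle filamin, was singled out after its values were seen, because 2 of its arrays stood above all normal ones. It measured 11.86, 12.17 and 12.01 in normal bladder, 13.14, 6.54 and 6.85 in tumors, and 12.28, 7.93 and 7.53 in adjacent tissue. By this brightest probe set, tumor 1 and adjacent 1 stood at 219% and 120% of normal and the other 4 arrays at 2.25% to 5.91%. Neither difference was called (adjusted p = 0.224 in tumors). The other Flnc probe set read 8.13, 8.04 and 8.26 in normal bladder, with tumor 1 above these at 9.31 and adjacent 1 below them at 7.48. It was called lower in adjacent tissue (-1.78, adjusted p = 0.0314) and not in tumors (adjusted p = 0.316). Flna, the widely expressed filamin, was called lower in both tissues, at 54.6% of normal in tumor 1 and 19.9% in adjacent 1.

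Probe sets of 2 dense-body genes disagreed in sign between tumors and normal bladder. For Pdlim7, a PDZ and LIM protein on actin, the brightest probe set read 10.83, 10.77 and 11.13 in normal bladder, 10.64, 8.75 and 8.71 in tumors, and 9.03, 8.77 and 9.37 in adjacent tissue. This gave -1.54 in tumors (adjusted p = 0.0715) and -1.86 in adjacent tissue (adjusted p = 0.00109), while the other Pdlim7 probe set gave 0.77 in tumors (adjusted p = 0.40). Ldb3, the PDZ and LIM protein also called cypher, had 6 probe sets. Its brightest read 10.24, 10.25 and 10.81 in normal bladder, 9.36, 6.30 and 6.23 in tumors, and 8.11, 7.48 and 6.27 in adjacent tissue. It was 8.79-fold lower in tumors (adjusted p = 0.0358) and 8.86-fold lower in adjacent tissue (adjusted p = 0.00309), and 1 dim Ldb3 probe set gave 1.19 in tumors (adjusted p = 0.427). Over all 79 probe sets of the 36 genes, 44 were called lower in tumors and 64 in adjacent tissue, and 0 were called higher in either.

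At the membrane, 4 of 7 genes were called lower in tumors (Cav1, Fermt2, Sgcb and Itga7) and 6 in adjacent tissue. Cav1, the coat protein of caveolae, measured 13.68, 13.71 and 13.73 in normal bladder, 13.09, 11.19 and 11.02 in tumors, and 12.01, 11.50 and 10.76 in adjacent tissue. It was 3.84-fold lower in tumors (adjusted p = 0.0390) and 4.88-fold lower in adjacent tissue (adjusted p = 0.00206). Fermt2, kindlin-2, an activator of integrins, measured 13.19, 13.36 and 13.28 in normal bladder, 12.74, 11.09 and 10.68 in tumors, and 12.12, 11.23 and 10.52 in adjacent tissue. It was 3.41-fold lower in tumors (adjusted p = 0.0441) and 3.95-fold lower in adjacent tissue (adjusted p = 0.00747). Leaving out tumor 2, tumor 3 or any 1 normal array ended both tumor calls.

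Beta- and alpha-sarcoglycan (Sgcb and Sgca), subunits of the dystrophin complex that ties the cytoskeleton to the matrix, gave the largest and the smallest tumor difference of this role. Sgcb was at 12.00, 11.97 and 11.99 in normal bladder, 10.28, 8.56 and 8.30 in tumors, and 9.87, 8.75 and 8.35 in adjacent tissue. It was 7.67-fold lower in tumors (adjusted p = 0.00957) and 7.97-fold lower in adjacent tissue (adjusted p = 0.00169). Sgca was at 8.35, 8.35 and 8.73 in normal bladder, 9.38, 7.05 and 8.08 in tumors, and 6.99, 6.56 and 6.79 in adjacent tissue. Its tumors lay on both sides of normal, with a difference of -0.31 ± 0.53 (adjusted p = 0.736) that turned positive (0.25) without tumor 2. Its adjacent arrays lay below all others, 3.24-fold lower than normal (adjusted p = 0.00279). Sgca was the 1 gene of the list whose tumors lay wholly above the adjacent tissue, where 4.10% of all genes did, and that difference of 1.39 ± 0.55 did not pass (adjusted p = 1.0).

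Integrins and dystrophin completed the membrane genes. Itga8, the alpha subunit of an integrin that binds nephronectin and is found on smooth muscle and fibroblasts, had the smallest adjacent difference of the list. It read 7.58, 7.10 and 7.85 in normal bladder, 7.61, 3.43 and 6.32 in tumors, and 7.93, 7.71 and 6.88 in adjacent tissue. Its adjacent difference was -0.0028 ± 0.34 (adjusted p = 0.997), was 0.20 with arrays centred on their medians, and was 0.41 by the other Itga8 probe set. Tumor 2 lay far below the other tumors, and the tumor difference of -1.72 ± 0.96 was not called (adjusted p = 0.267). Itga7, the laminin-binding integrin subunit of muscle, was called lower in both tissues, by -2.76 in tumors (adjusted p = 0.0192, lost without tumor 2 or any 1 normal array) and by -3.05 in adjacent tissue. The Dmd probe set, for dystrophin, was dim on 8 of the 9 arrays, so no fold is given, although its adjacent difference passed (adjusted p = 0.0198, lost without normal 1 or normal 3).

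Both transcription factors were lower in both tissues. Srf, the CArG-binding factor whose own window holds 2 boxes, read 11.66, 11.64 and 11.82 in normal bladder, 10.74, 10.15 and 10.26 in tumors, and 10.16, 10.24 and 10.35 in adjacent tissue. The 6 values of tumor and adjacent tissue lay close together and all below normal. They were 2.5-fold lower in tumors (adjusted p = 0.00525) and 2.75-fold lower in adjacent tissue (adjusted p = 0.000639). Of the dimmer Srf probe sets, 1 was also called lower, by -1.35 in tumors (adjusted p = 0.0241) and -1.60 in adjacent tissue (adjusted p = 0.0162). The remaining Srf probe set was not called, at -0.39 in tumors (adjusted p = 0.395) and -0.26 in adjacent tissue (adjusted p = 0.527). Myocd, the coactivator myocardin, had a wider range. It read 10.72, 10.86 and 10.53 in normal bladder, 9.14, 4.72 and 4.33 in tumors, and 8.56, 5.85 and 5.85 in adjacent tissue, with tumors 2 and 3 dim. It was called lower in tumors (adjusted p = 0.0349, lost when tumor 2, tumor 3 or any 1 normal array was left out), where no fold is given since 1 of 3 tumors measured it above the limit, and was 15.5-fold lower in adjacent tissue (adjusted p = 0.00651).

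Roles could be ordered within an array, since each gene was first set against its own normal mean. In tumor 1 the median gene of a role stood at 65.5% of normal for the 4 filament genes, 61.8% for the 7 actin-binding regulators, 68.9% for the 7 membrane genes, 54.6% for the 11 intermediate filament and dense body genes, 41.6% for the 2 transcription factors and 33.0% for the 5 genes of myosin phosphorylation and calcium. In tumor 2 the filament genes had the lowest median, 2.39%, and the membrane genes the highest, 12.6%. Tumor 3 had the same 2 roles at its ends, with 2.84% and 16.6%. The order of the roles thus differed between tumor 1 and the other tumors, and no test was made of it.

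Nonmuscle relatives of these proteins, listed with some other cytoskeletal and adhesion proteins, had differences of both signs. The list of 17 measured genes held cytoplasmic actin, nonmuscle myosin, tropomyosins, calponins and transgelin of other cells, and adhesion and other cytoskeletal proteins. Of these, 1 was called lower and 4 higher in tumors, and 5 lower and 4 higher in adjacent tissue. The shares of all genes were 9.95% lower and 13.6% higher in tumors, and 11.5% and 13.3% in adjacent tissue. The median difference of the 17 genes was 0.37 in tumors and 0.03 in adjacent tissue. Tpm3, a cytoskeletal tropomyosin, was at 11.84, 11.74 and 11.74 in normal bladder, 12.86, 12.99 and 12.74 in tumors, and 12.46, 12.81 and 12.86 in adjacent tissue. All 6 values were above normal, by 1.09 ± 0.11 in tumors (adjusted p = 0.00304) and 0.93 ± 0.14 in adjacent tissue (adjusted p = 0.00408), where Tpm1 and Tpm2 had negative differences. Zyx, zyxin of focal adhesions, was the gene of this list called lower in tumors (-0.91, adjusted p = 0.0479, not kept in every fit that left out an array). It is no paralog of a listed smooth muscle gene, and neither are Vcl, Tln1 and Pfn1. Zyx, Vcl and Tln1 were also called lower in adjacent tissue (adjusted p = 0.0126, 0.0117 and 0.0304), and Myh10 and Cnn2 were the others. With arrays centred, 1 gene of this list was called lower and 5 higher in tumors, where 7.67% and 17.6% of all genes were. In adjacent tissue 2 were then called lower and 4 higher, where 9.20% and 21.2% of all genes were. The centred count of higher genes in adjacent tissue was near that share.

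**Figure D4:**
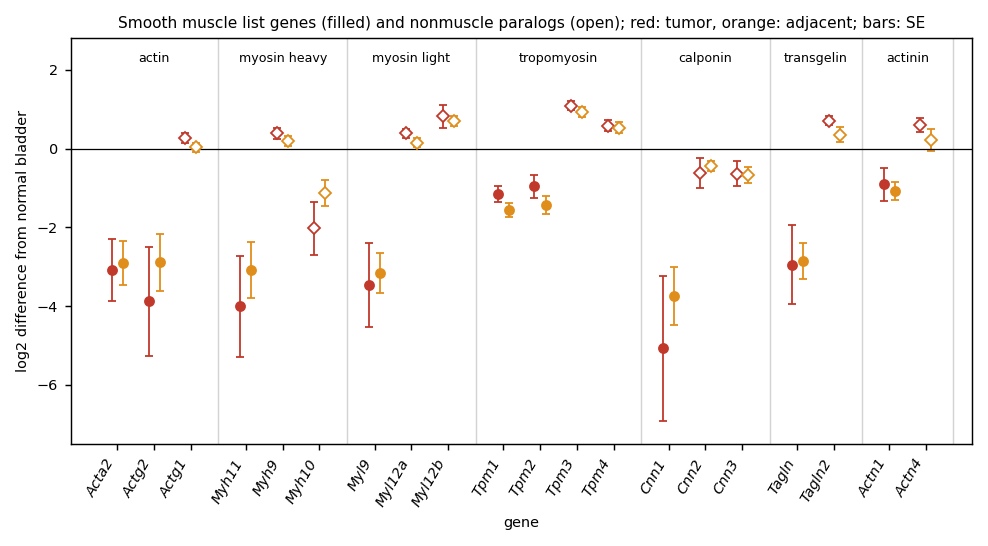
Log2 difference from normal bladder (vertical axis) for listed smooth muscle genes (filled circles) and nonmuscle paralogs (open diamonds) of 7 protein families, in tumors (red) and adjacent tissue (orange), n = 3 arrays a group; bars are standard errors from limma. Listed genes lie below 0 throughout, and Tpm3 and Tpm4 lie above 0 in both tissues.

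Signalling genes that act on smooth muscle myosin gave 10 lower and 3 higher of 20 in tumors, and 10 lower and 1 higher in adjacent tissue. Over all genes, 9.95% were called lower and 13.6% higher in tumors, and 11.5% and 13.3% in adjacent tissue. Hspb6, a small heat shock protein of relaxing muscle, differed by -4.42 in tumors (adjusted p = 0.0431), and Irag1, a target of cGMP-dependent kinase on the calcium store, by -3.44 (adjusted p = 0.0182). Other dense body and adhesion genes gave 11 lower and 1 higher of 21 in tumors and 12 and 1 in adjacent tissue, led in tumors by Lims2 (-4.81, adjusted p = 0.0405, tumor 2 dim) and Nexn (-4.14, adjusted p = 0.0258). Other genes of the dystrophin complex and caveolae gave 5 lower and 0 higher of 11 in tumors and 8 and 0 in adjacent tissue, led in tumors by sarcospan, Sspn (-4.88, adjusted p = 0.0158, tumor 2 dim), and dystrobrevin, Dtna (-4.71, adjusted p = 0.0166). Partners of SRF and other muscle regulators were mixed, with 4 lower and 3 higher of 18 in tumors and 5 and 2 in adjacent tissue. With arrays centred these counts were 2 and 3 in tumors and 4 and 3 in adjacent tissue. There Tshz3, a zinc finger factor of urinary tract muscle, differed by -3.31 in tumors (adjusted p = 0.0478, tumor 2 dim) and the forkhead factor Foxf1 by -2.03 (adjusted p = 0.0149). The tumor calls of Hspb6, Irag1, Lims2, Nexn, Sspn, Dtna, Tshz3 and Foxf1 did not hold in every fit that left out an array. None of the genes in these 4 lists or in the list of nonmuscle relatives passed between tumors and adjacent tissue.

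The medians of fibroblast markers and of Schwann cell and nerve markers also lay below normal on the tumor and adjacent arrays. Their part in the result was not tested. The median of 14 fibroblast markers stood at 81.5%, 6.85% and 16.4% of normal in tumors 1 to 3 and at 62.5%, 50.4% and 17.7% in adjacent samples 1 to 3. Of these, 1 was called lower in tumors (Pi16, -3.43, adjusted p = 0.0288, not kept in every fit that left out an array), where 9.95% of all genes were. In adjacent tissue 8 were called lower, where 11.5% of all genes were, or 6 with arrays centred, where 9.20% were. Thy1 and Fap, named after their values were seen, had a higher mean in tumors, by 0.65 and 0.73, and were not called (adjusted p = 0.0895 and 0.109). Their summed signal ran from 11934 to 105955 in tumors, 28270 to 84662 in adjacent tissue and 135060 to 138109 in normal bladder, and none of the 14 was dim on all arrays. The 8 Schwann cell and nerve markers stood at 70.3%, 19.1% and 15.5% of normal in tumors and 26.6%, 23.9% and 15.6% in adjacent tissue, with 3 called lower in tumors and 5 in adjacent tissue. Their summed signal ran from 3051 to 3862, 1121 to 2754 and 4328 to 4704 in tumors, adjacent tissue and normal bladder. Nefl, a neurofilament (adjusted p = 0.00439), and S100b, a Schwann cell marker (adjusted p = 0.0498), were among those called in tumors, and both were dim in tumors 2 and 3.

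Skeletal muscle was measured because several listed genes are shared with it. Of its 28 markers, 10 were dim on all 9 arrays: Myh4, Myh7, Myl3, Tnnt1, Actn2, Pvalb, Mb, Myot and the myogenic factors Myod1 and Myog. Others were bright, of which 3 were named after their values were seen. The fast troponin Tnnc2 read 13.40, 13.03 and 13.46 in normal bladder, 12.92, 1.66 and 4.24 in tumors (adjusted p = 0.102) and 10.33, 5.25 and 3.21 in adjacent tissue (adjusted p = 0.0169). Skeletal actin, Acta1, read 11.71, 11.66 and 12.88 in normal bladder, 11.91, 1.54 and 5.69 in tumors (adjusted p = 0.130) and 9.29, 8.15 and 7.0 in adjacent tissue (adjusted p = 0.00366). In both genes tumor 1 stood near normal and tumors 2 and 3 far below it. The probe set of the myosin heavy chain Myh1 read between 10.94 and 11.59 on all 9 arrays. It is of a type (_x_at) that may share probes with other transcripts, and its specificity was not tested. The summed signal of the skeletal list ran from 3076 to 16733 in tumors, 4104 to 5324 in adjacent tissue and 17713 to 26340 in normal bladder, with 4 called lower in tumors (Ckm at -3.99, with tumor 3 dim, and Tnnt3 at -3.07, with tumor 2 dim, among them) and 8 in adjacent tissue. Pericyte markers, which mark the contractile cells of small vessels, gave 2 lower of 9 in tumors (Abcc9 at -2.04 and Mcam at -1.67) and 4 in adjacent tissue. The pericyte list had a median of -0.14 in tumors, with Rgs5, Higd1b, Ndufa4l2 and Pdgfrb above 0 and not called, and summed signals of 3347 to 6459, 3455 to 4389 and 9332 to 10535 in tumors, adjacent tissue and normal bladder. Adipocyte markers gave 1 lower of 8 in both tissues, which was Lpl (-2.14 in tumors), and their summed signal ran from 9701 to 22935 in tumors, 11465 to 14444 in adjacent tissue and 16060 to 19264 in normal bladder. Over all genes, 9.95% were called lower in tumors and 11.5% in adjacent tissue. The adipocyte counts and the skeletal count in tumors were near these shares. The tumor calls of Tnnt3 and Mcam and the adjacent call of Tnnc2 did not hold in every fit that left out an array.

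Epithelial and leukocyte markers ran the other way. Of 19 urothelial markers, 9 were called higher and 2 lower in tumors and in adjacent tissue, with a summed signal of 173888 to 202335 in tumors, 152152 to 186847 in adjacent tissue and 122962 to 131306 in normal bladder. The basal keratin Krt14 was higher by 4.81 in tumors (adjusted p = 0.000321), and Krt20, of the surface cells, was lower by -3.82 (adjusted p = 0.0208, tumor 2 dim). The tissue labelled adjacent normal also had Krt14 higher, by 4.65 (adjusted p = 0.000268). The bladder marker Upk3a, a uroplakin (a protein of the urothelial surface), was named although it was not called, and was between 13.46 and 14.16 on all 9 arrays. Of the other uroplakins, Upk1a was called lower in tumors (-1.31, adjusted p = 0.0482), while Upk2 at -2.10 (adjusted p = 0.0652) and Upk1b at -0.17 (adjusted p = 0.453) were not called. With arrays centred, the Upk1b difference was 0.03. Of 12 leukocyte markers, 6 were called higher in tumors, among them Cd68 at 2.07 and Cd3d, which was dim on all normal arrays and so has no size given, and 8 in adjacent tissue, none lower, and their summed signal was 18451 to 21725, 21113 to 37704 and 9987 to 12074 in tumors, adjacent tissue and normal bladder. Endothelial markers were mixed, with a median difference of -0.44 in tumors and -0.32 in adjacent tissue. They gave 2 higher (Vwf at 1.59 and Eng at 0.95) and 1 lower (Esam at -0.93) of 10 in tumors. In adjacent tissue they gave 3 higher and 1 lower, with overlapping sums of 6950 to 9987, 7029 to 8258 and 7736 to 8831 in tumors, adjacent tissue and normal bladder. The tumor calls of Krt20, Upk1a, Cd68, Eng and Esam did not hold in every fit that left out an array. Over all genes, 9.95% were called lower and 13.6% higher in tumors, and 11.5% and 13.3% in adjacent tissue.

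**Figure D5:**
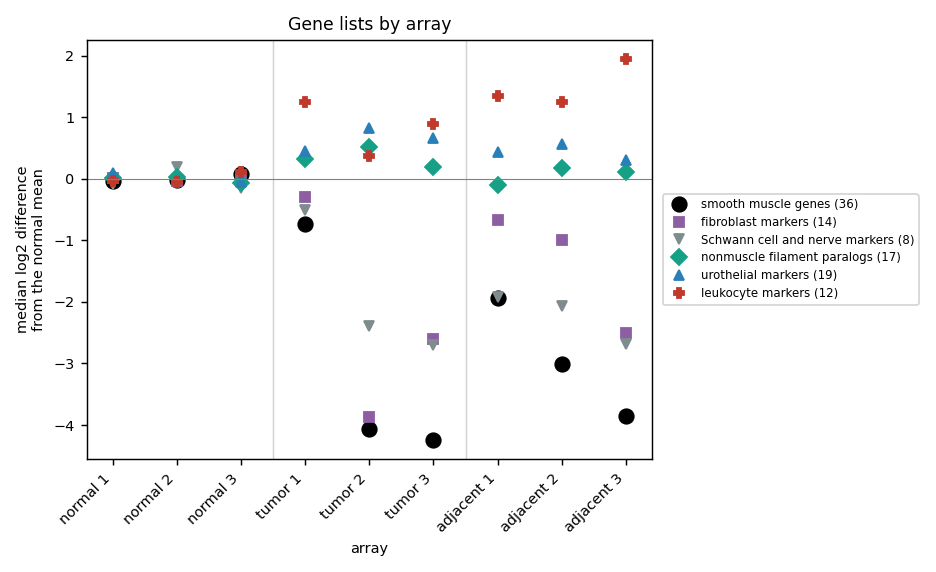
Median log2 difference from the normal mean (vertical axis) of 6 gene lists on each of the 9 arrays (horizontal axis); the number of genes measured in each list stands in the legend. Smooth muscle genes are the lowest points on all tumor and adjacent arrays, though close to Schwann cell and nerve markers on tumor 1 and adjacent 1. Fibroblast markers are also low on tumors 2 and 3, and urothelial and leukocyte markers stay above 0 on all tumor and adjacent arrays.

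Tumor 1, where the smooth muscle genes were nearest to normal, was also the tumor nearest to normal in fibroblast and nerve markers. Without the arrays numbered 1, a setting chosen after seeing the data, tumors were still not separated from adjacent tissue for any of the 36 genes (0 called). Actg2 then differed by -1.87 between tumors and adjacent tissue, and Myh11 by -1.75, neither past the threshold (adjusted p = 0.974 for each).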

How the data were processed

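Total RNA of 9 rat bladder samples (3 tumor, 3 adjacent, 3 normal, grouped by the labels) was labelled by 3′ in vitro transcription and read on Affymetrix arrays. The authors deposited log2 values from the MAS5 algorithm. Linear values had a 2% trimmed mean of 500.1 to 500.2 on every array, so depth does not apply and the number of arrays sets the precision. The deposited values were used as given, and 57 array controls were left out. Of 31042 probe sets, 20826 were annotated with 1 gene, 436 with several and 9780 with none, and those with several or none named no gene. A gene's brightest probe set stood for it.

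Each pair of groups was fitted alone with limma 3.58.1 (R 4.3.3, lmFit and eBayes with a variance trend), adjusted by Benjamini-Hochberg over all probe sets, threshold 0.05. The fit was run on simulated data with the same SD in both groups. It was therefore not tried on groups of unequal spread, such as the listed genes had in tumors and normal bladder. Per-array values were given for the 2 brightest genes of each role, those with the largest and smallest tumor difference, and those whose probe sets differed in sign; other lists gave counts and up to 2 called genes with the largest tumor difference. Members and lists were chosen with earlier results of these data known. Adjacent and tumor tissue share 3 rats; no more is known of separate extractions, and p-values measure only the spread among these arrays. Alternatives covered normalization, centring, filtering, added signal, probe set choice, the methods' t-test, the replicate block and each array left out. Promoter windows came from RefSeq GRCr8. Protein identity was not analysed here.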

Additional observations from a re-analysis of the deposited data

How the results depend on the processing

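For tumors against normal bladder, the 20 genes called lower became 5 without the variance trend and 1 by the methods' t-test after Benjamini-Hochberg adjustment (20 unadjusted), and 44 of 79 over all probe sets. Other settings gave 17 (replicate block) to 23 (all 9 arrays fitted together), and leaving out 1 array gave 4 to 34. For adjacent tissue, 34 became 12 by the adjusted t-test and 64 of 79 over all probe sets, other settings gave 24 to 34, and leaving out 1 array gave 27 to 35. Tumors against adjacent tissue gave 0 under every setting run, and no listed gene was called higher in any comparison under these settings. The cause of these moves was not tested.

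The replicate block treats equal sample numbers as pairs. Deviations of tumor and adjacent arrays of the same number correlated at r = 0.240, 0.0443 and 0.137 across probe sets, and tumor 2 correlated best with adjacent 3 (0.106), so the numbers were not shown to pair rats. With the replicate block, 17 genes were lower in tumors, 34 in adjacent tissue and 0 differed between tumors and adjacent tissue. An array read at log2 5.64 or less carries little information on how far a gene fell, which concerns Dmd on 8 arrays and Cnn1, Lmod1, Ppp1r12b, Myocd, Itga7 and Itga8 on some tumor or adjacent arrays. At a signal of 100 as the limit, 1 gene became dim on all tumors.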
